A study of Mus musculus with 14 samples.

Results

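The 10 genes Cd44, Vcam1, Thy1, S100a4, Bgn, Efemp1, Cavin2, Ankrd1, Ereg and Prss23 are genes of mesenchymal and adherent cells that were chosen by their measured signal, which was higher in iPSCs made under 2i than in embryonic stem cells (ESCs). They are 10 of the 18193 genes that the probe sets name, and all 10 passed the filter on dim genes that left 12663 genes. The arrays carry 22 probe sets for them, of which 20 passed the same filter. The choice rests on the measured difference between 2i iPSCs and ESCs and states no fold threshold, so that difference is given as a description only. The questions put to the data were whether each gene lies above or below its level in partial iPSCs and in fibroblasts, and how it behaves on arrays that played no part in the choice.

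Affymetrix arrays of 14 samples, 1 array each, measured mRNA in mouse cells. Partial iPSCs come from reprogramming that halted before pluripotency. The female C57BL/6 clones 2B1 and 5C5 gave 1 array each in medium with serum and LIF (leukemia inhibitory factor), and 1 array each after conversion under 2i, in which small molecules block the kinases MEK and GSK3. The ESCs were the male lines Nanog-GFP (C57BL/6, transgenic) and EBRTcH3 (129sv, wild-type), both in LIF and serum, with 1 array each. Mouse embryonic fibroblasts (MEFs) came from Nanog-GFP transgenic C57BL/6 embryos of mixed sex, aged 12.5 dpc in the sample title and 13.5 dpc in the series text, grew without LIF and gave 1 array. The other 7 arrays held 2B1 partial iPSCs in LIF and serum that had been infected with retrovirus carrying no insert, Cnot1, Cnot2, Cnot3, Trim28, Nanog, or the 3 Cnot genes at once (the Cnot123 array). Medium and cell state differ together between 2i and partial iPSCs, and line, sex and partly strain differ along with state between iPSCs and ESCs. All transduced arrays stem from 1 clone. Feeder cells are not named in the sources used here.

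The genes fall into a few roles. Cd44 is the main hyaluronan receptor, Vcam1 an immunoglobulin-domain ligand of integrins, and Thy1 a GPI-anchored surface glycoprotein used as a marker of fibroblasts and other mesenchymal cells. S100a4 is a calcium-binding protein of motile cells and is also known as fibroblast-specific protein. Bgn (biglycan) is a small leucine-rich proteoglycan and Efemp1 a fibulin, both secreted into the extracellular matrix. Cavin2 coats caveolae, the small pits of the plasma membrane, and Ankrd1 is a nuclear ankyrin-repeat protein and a common target gene of the YAP and TAZ coactivators. Ereg (epiregulin) is a ligand of the EGF receptor family, and Prss23 is a secreted serine protease. In the RefSeq table (GRCm38.p6), Cavin2 lies on chromosome 1, Cd44 on 2, S100a4 and Vcam1 on 3, Ereg on 5, Prss23 on 7, Thy1 on 9, Efemp1 on 11, Ankrd1 on 19 and Bgn on X. Reprogramming of fibroblasts normally goes along with loss of mesenchymal genes and gain of epithelial genes, and naive pluripotent cells carry little of most of these transcripts.

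Promoters of 3 of these genes are printed because S100a4 and Ankrd1 had the highest correlation of any pair of the 10 genes over the untransduced arrays, and because Cd44 had the lowest difference between 2i and partial iPSCs. Each line shows the 250 bases before the RefSeq start (GRCm38.p6), 5′ to 3′ along the gene, at chr19:36119845-36120094 (minus strand) for Ankrd1, chr3:90603520-90603769 (plus strand) for S100a4 and chr2:102901666-102901915 (minus strand) for Cd44. Capitals mark matches to the TEAD motif GGAATG, the AP-1 motif TGANTCA or the TATA box TATAAA on either strand.
Ankrd1: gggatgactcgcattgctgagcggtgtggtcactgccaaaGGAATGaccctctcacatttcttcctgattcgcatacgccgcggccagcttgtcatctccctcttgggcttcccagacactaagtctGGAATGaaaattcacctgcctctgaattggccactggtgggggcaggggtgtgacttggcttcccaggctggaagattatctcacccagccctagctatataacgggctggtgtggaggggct
S100a4: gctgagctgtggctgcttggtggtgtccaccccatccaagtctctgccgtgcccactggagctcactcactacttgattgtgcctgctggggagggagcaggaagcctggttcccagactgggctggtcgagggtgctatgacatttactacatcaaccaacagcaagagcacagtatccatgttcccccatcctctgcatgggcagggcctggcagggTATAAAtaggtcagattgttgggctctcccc
Cd44: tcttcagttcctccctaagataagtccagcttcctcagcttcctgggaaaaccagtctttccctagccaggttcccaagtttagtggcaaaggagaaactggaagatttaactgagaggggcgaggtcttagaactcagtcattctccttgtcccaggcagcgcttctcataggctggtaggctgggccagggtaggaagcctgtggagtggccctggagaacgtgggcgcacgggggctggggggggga
Ankrd1 has TEAD matches starting 210 and 123 bases before its start. S100a4 has a TATA box 31 bases before its start, and the Cd44 window holds none of these 3 motifs. RefSeq gave 13 starts for 7 of the 10 genes. Among these 13 windows, 1 held TEAD, 3 held AP-1 (starts of Efemp1 and Prss23), 1 held the TATA box, 6 held the GC box GGGCGG and 10 held the E-box CANNTG. Of all 32851 promoter windows of this length, 12.6% held TEAD, 6.75% AP-1, 12.4% the TATA box, 32.7% the GC box and 66.2% the E-box. Counted by gene, 1 of the 7 genes held TEAD, 2 AP-1, 1 the TATA box, 3 the GC box and 4 the E-box. Most of the 13 windows belong to Prss23, and some of these overlap, so the window counts are not separate observations. GC boxes can overlap each other, and a match is a description of letters only.

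Values are log2 RMA signals as deposited, and each gene is given by its brightest probe set, judged by the mean of all 14 arrays. The 7 untransduced and the 7 transduced arrays had different value distributions, with array means of 6.09 and of 5.87 to 5.88, so both sets were treated as separately normalized. The MEF array carried the fibroblast list high (mean 11.48 over 19 genes, with 0 below the 25th percentile of the array) and the pluripotency list low (4.42 over 10 genes). The 2i iPSCs and ESCs carried the pluripotency list at 11.64 to 12.27, against 6.28 and 6.34 in untreated partial iPSCs. The introduced genes gave no check of the transduced arrays. Cnot1 has no probe set assigned to it alone, and the 11 probe sets of Cnot2, Cnot3, Trim28 and Nanog differed from empty vector by -0.99 (Nanog) to 0.30 on their own arrays, with 0 of 19 such readings at least 1 log2 higher. Whether these probes lie in the introduced cDNAs is not known here, so these arrays are called by their labels.

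In 2i iPSCs, S100a4, Cavin2 and Ankrd1 had nearly the same mean as in partial iPSCs, Cd44 a lower one and the other genes a higher one. Both ESC lines lay far below. The mean difference between 2i iPSCs and ESCs ran from 4.32 for Thy1 to 8.28 for Cd44, with a median of 6.64. These values come from the contrast that chose the genes. The differences of ESCs from partial iPSCs, in which the ESC arrays entered the choice as well, ran from -8.81 (Cd44) to -3.24 (Thy1). The ESC readings of Cd44, Vcam1, Cavin2, Ankrd1 and Ereg lay below the 25th percentile of both ESC arrays, and those of Efemp1 and Prss23 did so on 1 of the 2, so background limits these differences. In bulk RNA, fewer cells that express a gene cannot be told apart from less RNA of that gene in each cell.

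**Figure D1:**
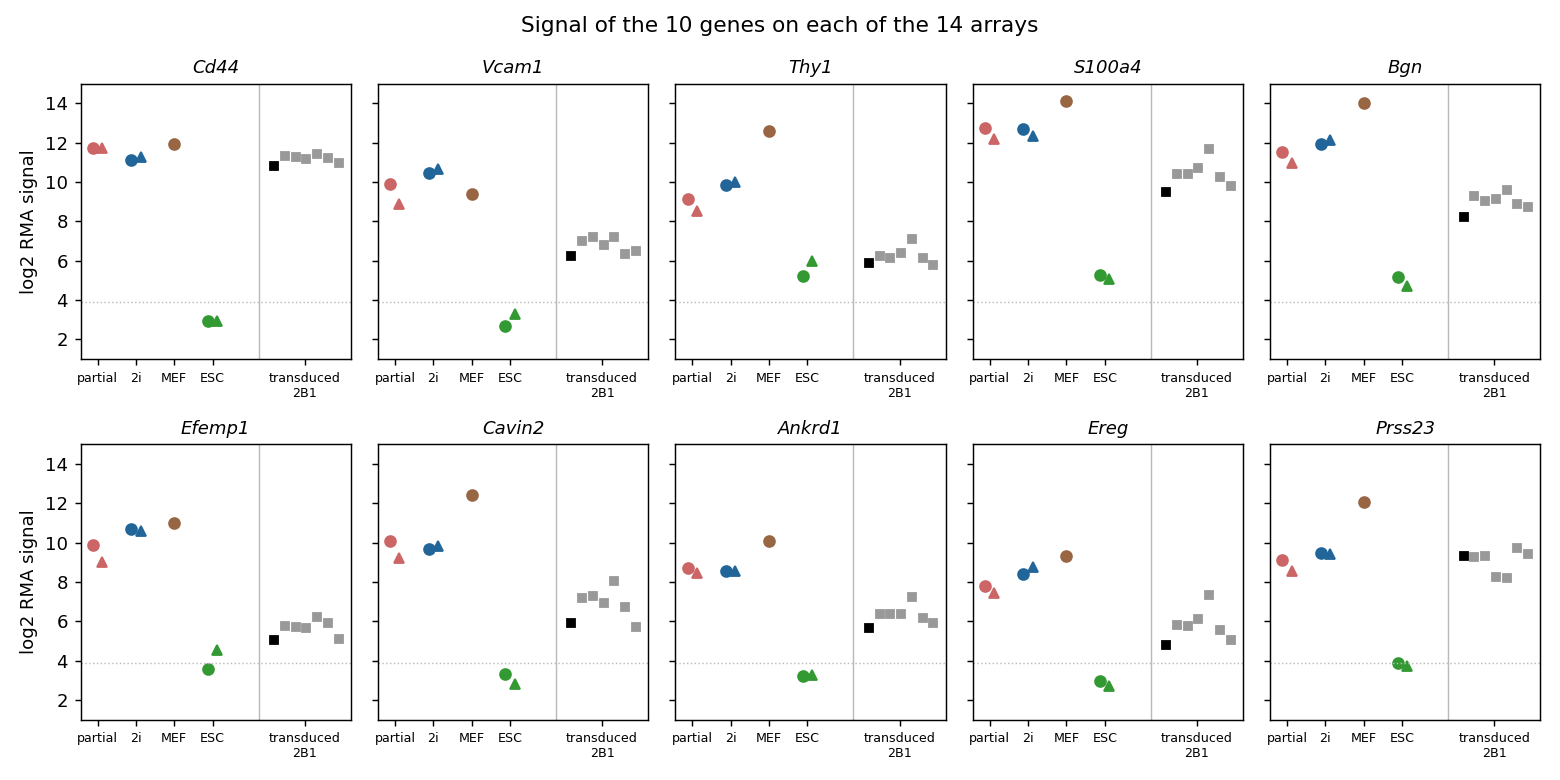
Log2 RMA signal of the 10 genes (y axis) on each array: partial iPSCs (red), 2i iPSCs (blue), MEF (brown) and ESCs (green), with circles for clone 2B1 or line Nanog-GFP and triangles for clone 5C5 or line EBRTcH3. Right of the grey line are the separately normalized transduced 2B1 arrays in the order empty vector (black), Cnot1, Cnot2, Cnot3, Cnot123, Trim28 and Nanog (grey); the dotted line is the 25th percentile of the untransduced arrays (highest value 3.89), and ESCs lie lowest among the untransduced arrays in every panel.

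Against partial iPSCs, the 10 genes had a median difference of 0.71 in 2i iPSCs, beside 0.03 over all tested genes. In limma's test over all genes, 0 of the 10 were called in either direction at an adjusted p below 0.05, beside 6.00% of the tested genes (3.55% higher, 2.46% lower). At an unadjusted p below 0.05, Bgn, Efemp1, Ereg, Thy1 and Vcam1 were higher (13.8% of tested genes) and Cd44 was lower (10.5%). Both 2i arrays lay above both partial arrays for 6 genes (34.2% of tested genes) and below both for 1 (29.5%). The 2i arrays entered the choice of the genes, so neither these differences and counts nor the p-values are independent of it. Each group has 2 arrays from separate clones or lines, and the 3 groups share 1 estimate of spread. The test thus measures the spread between clones and between the ESC lines. With so few arrays, a gene that was not called has not been shown to keep its level.

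Among the surface receptors, Cd44 had the lowest difference of all 10 genes. It read 11.74 (2B1) and 11.72 (5C5) in partial iPSCs, 11.12 and 11.27 in 2i iPSCs, 11.93 in MEFs and 2.93 and 2.92 in ESCs (Nanog-GFP, EBRTcH3). Both 2i arrays lay below both partial arrays and below the MEF array. The difference from partial iPSCs was -0.53 (SE 0.18, 95% interval -0.98 to -0.09, limma adjusted p = 0.149). Of its other probe sets, those that are bright differed by -0.65 and -1.28 (adjusted p = 0.114 and 0.0631 with every probe set tested singly), and the fourth read between 2.52 and 2.87 on all untransduced arrays.

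Vcam1 was the one gene that stood above MEFs in 2i iPSCs. It read 9.91 and 8.88 in partial iPSCs, 10.46 and 10.68 in 2i iPSCs, 9.40 in MEFs and 2.66 and 3.28 in ESCs. The partial clones lay on either side of the MEF value, and both 2i arrays lay above every other array of this set. The difference from partial iPSCs was 1.17 (SE 0.41, 95% interval 0.12 to 2.22, limma adjusted p = 0.168). The probe sets of Vcam1 disagreed. A second one gave a difference of 0.88 from partial iPSCs and 1.52 from MEFs, whereas the third read 8.55 and 7.18 in partial iPSCs, 7.21 and 6.97 in 2i iPSCs and 7.22 in MEFs.

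Thy1 was highest in MEFs by a wide margin. Its readings were 9.16 and 8.51 in partial iPSCs, 9.84 and 9.98 in 2i iPSCs, 12.61 in MEFs and 5.22 and 5.97 in ESCs. The groups did not overlap, and 2i iPSCs stood 1.07 above partial iPSCs (SE 0.35, 95% interval 0.18 to 1.97, limma adjusted p = 0.147). In linear terms the 2i mean was 15.4% of the MEF signal.

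S100a4 gave nearly the same values in partial and 2i iPSCs. It read 12.74 and 12.17 in partial iPSCs, 12.68 and 12.36 in 2i iPSCs, 14.10 in MEFs and 5.28 and 5.07 in ESCs. The 2i readings lay inside the range of the partial clones. The difference of 0.06 (SE 0.27, 95% interval -0.63 to 0.75, limma adjusted p = 0.920) was smaller than the SD between the partial clones (0.40, n = 2), and with arrays centred on the median it was -0.02.

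Both matrix genes were higher in 2i iPSCs than in either partial clone. Bgn read 11.51 and 10.95 in partial iPSCs, 11.91 and 12.16 in 2i iPSCs, 14.03 in MEFs and 5.17 and 4.74 in ESCs. Its difference from partial iPSCs was 0.80 (SE 0.29, 95% interval 0.07 to 1.53, limma adjusted p = 0.175), and its other probe sets gave 0.92 and 1.02. Efemp1 had the highest mean difference of the 10 genes. It read 9.89 and 9.01 in partial iPSCs, 10.70 and 10.61 in 2i iPSCs, 11.005 in MEFs and 3.58 and 4.56 in ESCs. The difference of 1.21 (SE 0.44, 95% interval 0.09 to 2.32, limma adjusted p = 0.180) left the 2i mean at 78.5% of the MEF signal.

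The caveolar gene Cavin2 and the YAP and TAZ target Ankrd1 overlapped between partial and 2i iPSCs. Cavin2 read 10.11 and 9.22 in partial iPSCs, 9.70 and 9.84 in 2i iPSCs, 12.40 in MEFs and 3.31 and 2.83 in ESCs. Both 2i values lay between those of the partial clones, with a mean difference of 0.11 (SE 0.36, 95% interval -0.80 to 1.01, limma adjusted p = 0.893). Ankrd1 read 8.71 and 8.49 in partial iPSCs, 8.54 and 8.56 in 2i iPSCs, 10.09 in MEFs and 3.23 and 3.28 in ESCs. Its difference was -0.05 (SE 0.18, 95% interval -0.52 to 0.42, limma adjusted p = 0.899), and its other probe set gave 0.06.

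Of the secreted factors, Ereg came closest to the threshold. It read 7.81 and 7.45 in partial iPSCs, 8.42 and 8.76 in 2i iPSCs, 9.32 in MEFs and 2.97 and 2.74 in ESCs. Partial iPSCs, 2i iPSCs and the MEF array followed each other without overlap. The difference was 0.96 (SE 0.24, 95% interval 0.36 to 1.56, limma adjusted p = 0.0849). Prss23 read 9.13 and 8.56 in partial iPSCs, 9.499 and 9.42 in 2i iPSCs, 12.06 in MEFs and 3.90 and 3.72 in ESCs. It was higher by 0.61 (SE 0.25, 95% interval -0.02 to 1.25, limma adjusted p = 0.216), and another bright probe set gave 0.70.

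**Figure D2:**
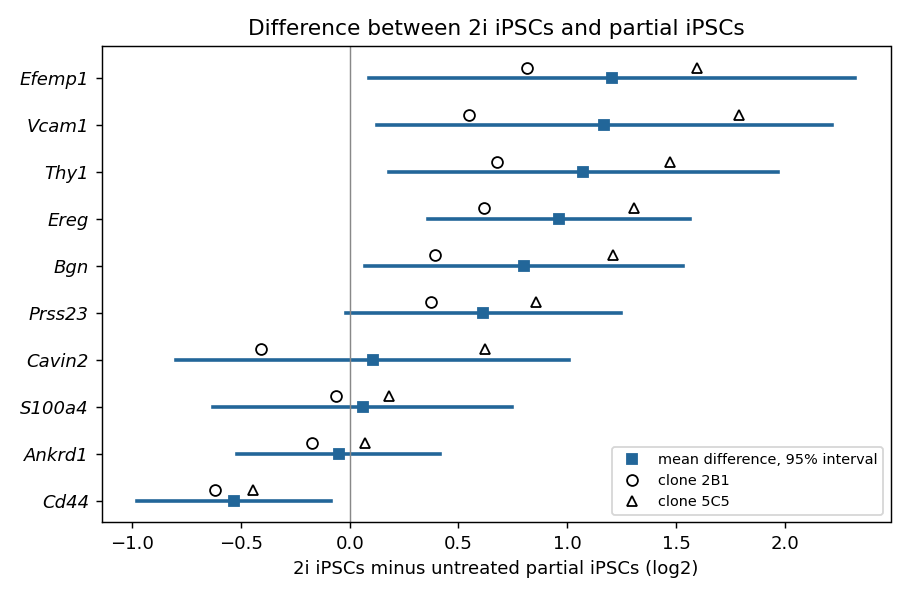
Difference between 2i iPSCs and untreated partial iPSCs on the log2 scale (x axis) for each gene: squares and bars are limma's mean difference and 95% interval (2 against 2 arrays, not adjusted for the number of genes), open circles the difference within clone 2B1 and open triangles that within clone 5C5. The triangle lies right of the circle in all 10 genes, and means run from -0.53 for Cd44 to 1.21 for Efemp1.

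By the brightest probe set, the clones differed in the same sense for every gene. Untreated 2B1 read above untreated 5C5 for all 10 genes, by 0.02 (Cd44) to 1.02 (Vcam1), where 50.2% of all tested genes did so. With arrays quantile normalized, Cd44 left this pattern (-0.01), and its other bright probe sets gave -0.07 and 0.35 as deposited. After 2i the clones differed by -0.34 (Ereg) to 0.32 (S100a4). The difference between the 2i and the untreated array was thus more positive in 5C5 for all 10 genes, where 49.9% of tested genes were. It ran from -0.62 (Cd44) to 0.82 (Efemp1) in 2B1 and from -0.44 (Cd44) to 1.79 (Vcam1) in 5C5. The 10 genes share the same 4 arrays, so their common sense is not 10 separate observations.

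Compared with the single MEF array, the genes spread over a wide range. Both 2i arrays were at least 1 log2 unit below MEFs for 6 genes (Ankrd1, Bgn, Cavin2, Prss23, S100a4 and Thy1; 11.5% of tested genes) and at least 1 above for Vcam1 (16.8%), which fell short of this with arrays centred on the median. For Cd44, Efemp1 and Ereg the differences of the 2i means from MEFs were -0.73, -0.35 and -0.73, although the other bright probe sets of Cd44 gave -1.16 and -2.52. The other probe set of Ankrd1 was at -0.76 from MEFs in 2i iPSCs and at -0.95 and -0.69 in the partial clones, short of 1 in both comparisons. Both partial clones were at least 1 below MEFs for 8 genes (9.90% of tested genes), all but Cd44 and Vcam1, and for 0 genes above (11.3%). As a share of the MEF signal on a linear scale, the 2i mean was 15.4% for Thy1, 16.2% for Cavin2, 16.5% for Prss23, 25.01% for Bgn, 33.4% for S100a4 and 34.4% for Ankrd1 (59.1% with its other probe set). It was 60.2% for Cd44, 60.3% for Ereg, 78.5% for Efemp1 and 224% for Vcam1. There is 1 MEF array, so these differences have no replicate check. The order of levels was ESC, partial iPSC, 2i iPSC and MEF for Bgn, Efemp1, Ereg, Prss23 and Thy1. Partial and 2i iPSCs could not be ordered for S100a4, Cavin2 and Ankrd1, whose readings overlapped, and Cd44 and Vcam1 departed from this order as described.

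Fibroblast markers were set beside these values. The mean of 19 fibroblast markers was 7.94 and 7.64 in untreated 2B1 and 5C5, 8.60 and 8.71 in 2i iPSCs, 11.48 in MEFs and 5.83 and 5.67 in ESCs. The mean of this list, which holds collagens and mesenchymal transcription factors, was lowest in ESCs, followed by partial iPSCs, 2i iPSCs and MEFs, whereas its members Dcn (-0.93), Fn1 (-0.32), Fap (-0.23) and Vim (-0.11) had a lower mean in 2i than in partial iPSCs. Of its 17 tested genes, 4 rose and 0 fell in 2i iPSCs against partial iPSCs, with a median of 1.21. At an unadjusted p below 0.05, 12 of the 17 were higher and 0 lower. The 4 were the collagens Col6a2 (1.99, SE 0.30, limma adjusted p = 0.0280), Col5a1 (1.59, SE 0.27, adjusted p = 0.0376) and Col1a2 (1.504, SE 0.26, adjusted p = 0.0376), and the matrix protein Postn (1.96, SE 0.22, adjusted p = 0.0139). With the clone as a replicate block, Postn kept its call (adjusted p = 0.0492), while Col6a2, Col5a1 and Col1a2 did not (adjusted p = 0.0709, 0.0932 and 0.0909).

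The markers reached different shares of the MEF signal in 2i iPSCs. Postn stood at 1.53%, Fap, a surface protease of fibroblasts, at 2.82%, Pdgfrb at 5.15%, Col1a1 at 7.39%, Col1a2 at 22.9% and the transcription factor Zeb1 at 61.8%. On both 2i arrays, 2 of the 19 markers (Fap and Lum) were below the 25th percentile of the array. Whether fibroblasts in the cultures had a part in the levels of the 10 genes was not tested. For Vcam1, the measurement is that 2i iPSCs lay above MEFs with 2 of its 3 probe sets. Endothelial markers, which could go along with Vcam1, Cavin2 and Thy1, read 5.14 and 5.42 on average in 2i iPSCs and 5.00 to 5.60 in partial iPSCs and ESCs. Of these, Pecam1, which ESCs also express, rose by 5.19 (SE 0.20, limma adjusted p = 0.000976) and Tek fell by 3.57 (SE 0.63, adjusted p = 0.0408; 0.0872 with the clone as a block), among 3 of the 6 endothelial genes that were bright enough to test.

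**Figure D3:**
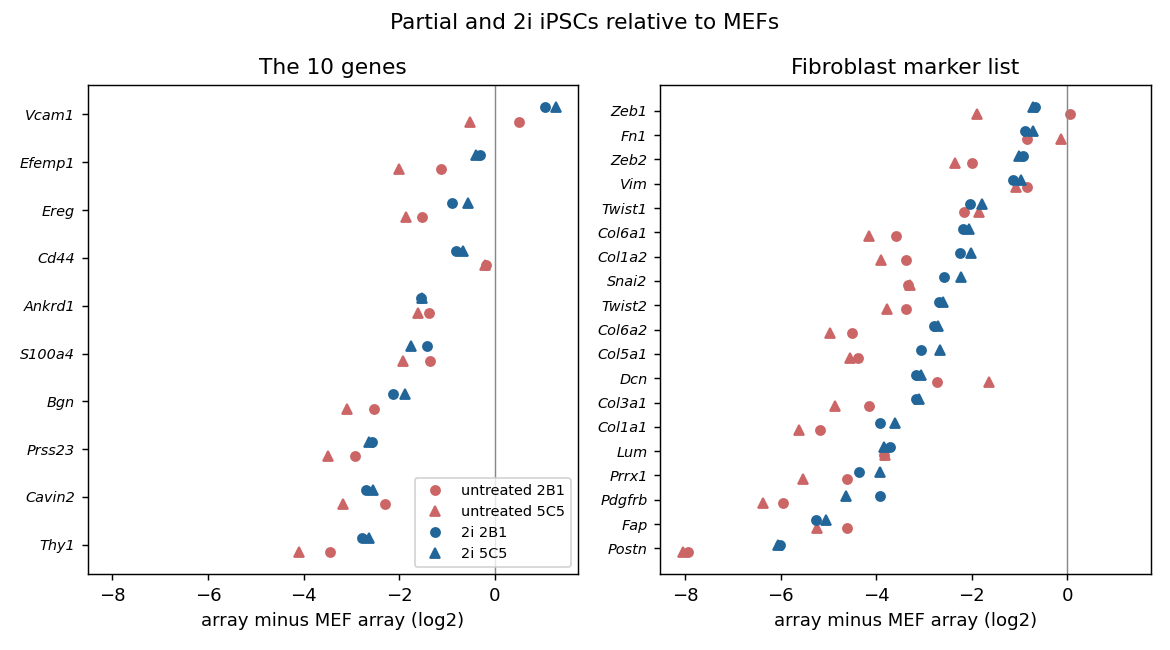
Log2 difference of each untreated (red) and 2i (blue) array from the single MEF array (x axis), for the 10 genes (left) and the 19 fibroblast markers (right), with circles for clone 2B1 and triangles for clone 5C5. Vcam1 alone has both 2i arrays above 0; 2i means run down to -2.70 (Thy1) among the 10 genes and to -6.03 (Postn) among the markers.

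The partners of the 10 genes in their pathways did not share one direction. Of 9 tested genes of hyaluronan metabolism and Cd44 linkage, 2 fell and 0 rose in 2i iPSCs, with a median of -0.12. These were the hyaluronan synthase Has2 (-3.78, SE 0.33, limma adjusted p = 0.00793) and the hyaluronan-degrading factor Cemip (-3.96, SE 0.51, adjusted p = 0.0200; 0.0554 with the clone as a block). Of 7 S100 genes other than S100a4, S100a16 fell by 2.41 (SE 0.30, adjusted p = 0.0173), with a median of -0.58. Of 10 adhesion molecules and integrin partners of Vcam1, Icam1, an immunoglobulin-domain relative of Vcam1, rose from 5.60 and 5.92 to 10.32 and 10.20 (4.504, SE 0.23, adjusted p = 0.00156), and 0 fell. In contrast to Vcam1, Icam1 read 10.47 and 10.12 in ESCs. Of 8 mesenchymal surface markers, the proteoglycan Cspg4 rose (2.11, SE 0.26, adjusted p = 0.0180, and 0.0562 with the clone as a block). The ectonucleotidase Nt5e (-5.80, SE 0.74, adjusted p = 0.0197) and the neurotrophin receptor Ngfr (-2.04, SE 0.22, adjusted p = 0.0139) fell. By limma's unadjusted p below 0.05, 3 surface markers were higher (Cspg4, Eng and Pdgfrb) and 2 lower. The hyaluronan list then held 1 higher and 2 lower, the S100 list 0 and 2, and the adhesion list 2 and 1.

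Few genes of the matrix, caveolar and signalling lists passed the test, which does not show that the others kept their level. Of 3 small leucine-rich proteoglycans other than Bgn, Prelp rose by 1.24 (SE 0.22, limma adjusted p = 0.0419; 0.0797 with the clone as a block). Of 16 genes of the YAP and TAZ pathway, 1 fell, the scaffold Amotl2 (-1.21, SE 0.21, adjusted p = 0.0388, and 0.0988 with the clone as a block). The list median was -0.42 beside -0.05 for Ankrd1. By limma's unadjusted p below 0.05, 4 of these 16 genes were lower (Amotl2, Ccn1, Ccn2 and Lats2) and 0 higher. By the same measure, the proteoglycans Prelp and Ogn were higher. By limma, 0 of 10 fibulin and elastic fibre genes, 0 of 7 caveolar genes, 0 of 7 EGF family genes and 0 of 8 secreted proteases and serpins passed, with medians of 0.34, 0.48, -0.21 and 0.28. At an unadjusted p below 0.05 these lists held 1 higher gene (Ltbp2), 1 lower (Cavin1), 1 higher and 2 lower (among Erbb2, Erbb3 and Hbegf) and 2 higher (Htra3 and Plat). The other marker lists gave 1 riser each among 5 neural (Tubb3, 2.85) and 5 endoderm genes (Afp, 1.13; adjusted p = 0.0486, and 0.104 with the clone as a block). At an unadjusted p below 0.05, 4 of the 5 endoderm genes were higher. By limma there were 0 calls among 3 macrophage and blood, 4 muscle and 4 trophoblast genes, with 1, 2 and 1 at an unadjusted p below 0.05. Of 10 pluripotency markers, 8 rose, led by Zfp42 (10.003), and 1 fell, Pou5f1 (-1.36), a core pluripotency factor. Pou5f1 read 13.25 and 13.16 in untreated 2B1 and 5C5, 11.95 and 11.72 after 2i, and 12.42 and 12.27 in ESCs. The signal of this probe set in partial iPSCs was thus above that in ESCs. Whether it comes wholly from the cells' own gene is not known here.

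Over the 7 untransduced arrays, Pearson correlations between pairs of the 10 genes lay between 0.850 and 0.998, with a median of 0.977. These arrays include the 2i and ESC arrays that chose the genes, and the low ESC readings weigh heavily. High values thus follow largely from the choice and are a description over arrays that all pairs share. S100a4 and Ankrd1 were each other's closest gene (0.998), and S100a4 was also closest to Cd44 (0.990). The closest other gene was Cd34, a surface sialomucin, for Vcam1 (0.997), S1pr3, a receptor for sphingosine 1-phosphate, for Thy1 (0.998), and Antxr2 for Bgn (0.999). It was the collagen Col4a5 for Efemp1 (0.999), the annexin Anxa2 for Cavin2 (0.997), the mitochondrial carrier Slc25a24 for Ereg (0.999) and the chemokine Cxcl12 for Prss23 (0.999). Nearest to the mean profile of the 10 genes were Tnfaip2, Anxa2, Cav1, Slc25a24 and Antxr2 (0.996 to 0.998), and 185 of the tested genes outside the 10 exceeded 0.95. Cav1, the scaffold of caveolae, read 10.19 and 9.48 in partial iPSCs, 10.25 and 10.53 in 2i iPSCs, 12.30 in MEFs and 4.45 and 4.70 in ESCs.

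On the transduced 2B1 arrays, which the choice of the genes did not use, 9 of the 10 genes read above empty vector on all 4 arrays labelled with Cnot genes, as did 26.9% of tested genes. The exception was Prss23. The Cnot123 array gave the widest differences, with 8 genes at least 1 log2 unit higher (3.72% of tested genes) and Prss23 at least 1 lower (8.43%). The same 9 genes also read higher on the Cnot123 array than on each array with a single Cnot gene, as did 27.1% of tested genes. There is 1 array per factor, so no test was made. All differences on the transduced arrays share the single empty vector array, so a low reading there raises all of them. Neither the arrays nor the 10 genes are thus separate observations.

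Ereg had the widest difference. It read 4.78 with empty vector, 5.81, 5.76 and 6.12 with Cnot1, Cnot2 and Cnot3, 7.35 on the Cnot123 array, 5.58 with Trim28 and 5.08 with Nanog. The Cnot123 reading was 2.57 above empty vector. Across the separately normalized sets it was below the 7.81 and 7.45 of untransduced 2B1 and 5C5. With all 14 arrays quantile normalized together it lay above 5C5, so its order against 5C5 is not settled. S100a4 read 9.49 with empty vector, 10.42, 10.41 and 10.71 with the single Cnot genes, 11.65 on the Cnot123 array, 10.28 with Trim28 and 9.79 with Nanog, so that the Cnot123 array was higher by 2.16. Cavin2 read 5.94 with empty vector, 7.19, 7.31 and 6.94 with the single Cnot genes, 8.07 on the Cnot123 array, 6.71 with Trim28 and 5.73 with Nanog. It was at least 1 higher on each single Cnot array.

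The other genes followed with narrower differences on the Cnot123 array. Ankrd1 was higher by 1.58, Bgn by 1.38, Thy1 by 1.25, Efemp1 by 1.19, Vcam1 by 1.001 and Cd44 by 0.61. Vcam1 is thus at the threshold, and its other probe sets gave 0.64 and 0.36. At least 1 log2 unit higher were 3 genes on the Cnot1 array (Bgn, Cavin2 and Ereg, 4.15% of tested genes). The same held for 1 on the Cnot2 array (Cavin2, 2.87%) and 3 on the Cnot3 array (Cavin2, Ereg and S100a4, 2.49%). On the Cnot1 array, the other probe sets of Bgn gave 0.77 and 0.84. After quantile normalization Ereg was at 0.995 there, which left 2 genes. With arrays centred on the median, Ereg and Vcam1 joined Cavin2 on the Cnot2 array. On the Trim28 array all 10 genes read above empty vector, by 0.12 (Vcam1) to 0.87 (Efemp1), where 47.5% of tested genes did so, and 0 reached 1 (0.963% of tested genes). On the Nanog array the differences ran from -0.21 (Cavin2) to 0.49 (Bgn), and 0 reached 1 (0.561%). At least 1 lower were 0 of the 10 genes on the Cnot1 (5.87% of tested genes), Cnot2 (3.89%), Trim28 (1.52%) and Nanog (0.869%) arrays. Prss23 read 9.32 with empty vector, 9.29 and 9.35 with Cnot1 and Cnot2, 8.26 with Cnot3, 8.18 on the Cnot123 array, 9.72 with Trim28 and 9.40 with Nanog. It was thus 1.06 below empty vector with Cnot3 (1 of 10 genes, 5.19% of tested genes), and its other bright probe set gave -1.41 with Cnot3 and -1.55 on the Cnot123 array.

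Gene lists placed beside these arrays differed in direction. The median over all tested genes was -0.01 on the Cnot123 array, and over the 10 genes it was 1.32. It was 0.57 for the 17 tested fibroblast markers, of which 4 were at least 1 higher and 4 at least 1 lower. Col1a2 was higher by 1.67 and the transcription factor Twist2 by 1.88, while Twist1 read -1.64 and the proteoglycan Dcn -1.31. The median was 1.09 for the 7 caveolar genes, 1.25 for the 8 secreted proteases and serpins and -0.44 for the 16 YAP and TAZ genes. The mean of the 19 fibroblast markers lay between 6.71 and 6.98 on the 7 transduced arrays, with 6.77 for empty vector and 6.98 for Cnot123. Their part in the differences of the 10 genes was not tested.

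**Figure D4:**
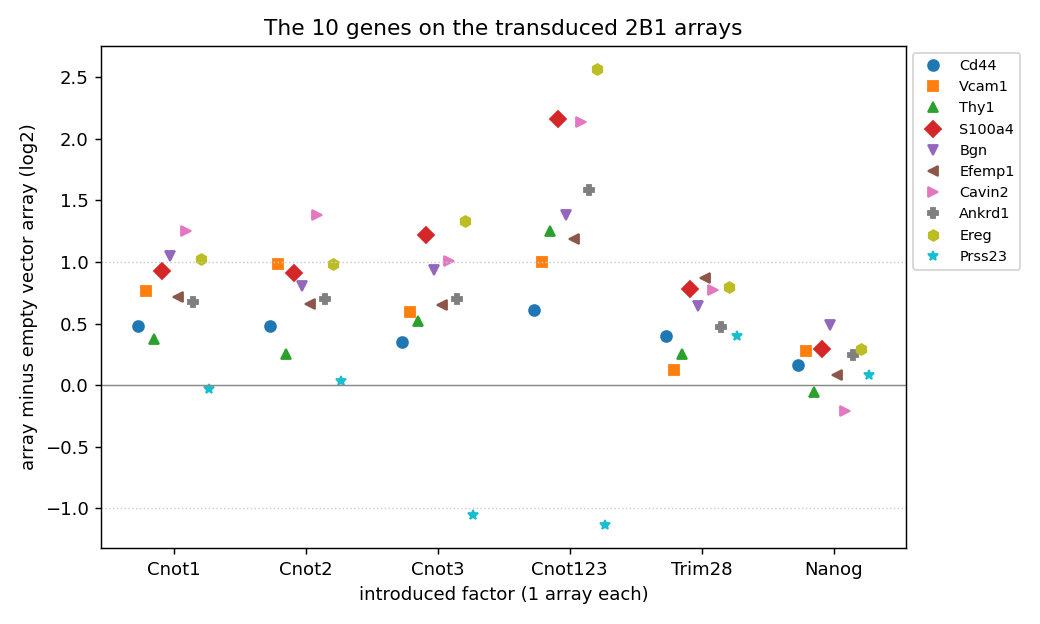
Log2 difference of each transduced 2B1 array from the empty vector array (y axis) for the 10 genes, 1 array per introduced factor (x axis), with dotted lines at 1 and -1. On the Cnot123 array 8 genes lie at or above 1, up to 2.57 for Ereg, and Prss23 lies at -1.14.

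Empty vector 2B1 and untreated 2B1 stood far apart in these genes. This comparison crosses the separately normalized sets, between which the median over all tested genes was -0.27, and it was chosen after the values were seen. With empty vector, 8 of the 10 genes read at least 1 log2 unit lower than in untreated 2B1 (12.1% of tested genes) and 0 at least 1 higher (4.68%). The 8 were also at least 2 lower (2.48%), from -3.02 for Ereg to -4.85 for Efemp1. Cd44 read 10.82 against 11.74 (-0.92), and Prss23 read 9.32 against 9.13 (0.19). With all 14 arrays quantile normalized together, the same 8 genes lay between -2.70 and -4.59, Cd44 at -0.74 and Prss23 at 0.42. Of the 17 tested fibroblast markers, 9 were at least 1 lower with empty vector. Among them were Col3a1 (-3.62), Col1a2 (-3.36) and Col1a1 (-3.16). In contrast, Twist1 (0.63), Fn1 (0.56), Zeb2 (0.41), Dcn (0.40), Prrx1 (0.18) and Snai2 (0.10) read higher. The set of arrays, its normalization, the vector and the culture differ together here and cannot be told apart.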

How the data were processed

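Expression was measured in 14 mouse cell samples on Affymetrix arrays of 45101 probe sets. Per the labels, total RNA was extracted with TRIzol and labelled as biotinylated cRNA. The deposited values are log2 probe set summaries, made with RMA and affy per the submitters' processing notes; for their versions, settings and genome build, the sources used here give none. Genes were named from the platform annotation: 34945 probe sets had 1 gene, 932 several and 9160 none, beside 64 controls. Gene identifiers of 34741 matched RefSeq (GRCm38.p6), which gave current symbols and promoter sequences. Each of 18193 genes was represented by its brightest probe set, and 12663 were tested, those with at least 2 of 14 arrays at or above the table median of 5.42.

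The partial, 2i and ESC groups (6 arrays) entered 1 two-sided linear model (limma 3.58.1, R 4.3.3), with Benjamini-Hochberg adjustment over all tested genes and calls at an adjusted p below 0.05. Arrays of the same clone were paired by the clone, with a correlation of their deviations of 0.11 across genes; the fit without the block was the main one. Single arrays were compared by differences, with 1 log2 unit as the threshold. Precision is limited by how few arrays each group has. The members and lists were chosen with earlier results of these data known. Named genes were the 10 members, up to 4 called genes per list by size, and the genes of closest pattern; other genes named from the lists were chosen after their values were seen. Alternatives were 2 normalizations, 2 filters, the 4 compared arrays alone, the clone as a block, every probe set, and each array left out.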

Additional observations from a re-analysis of the deposited data

Results flagged for a closer look

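Cavin2, S100a4 and Ankrd1 differed in opposite directions in the clones when the 2i array was set against the untreated array. Cavin2 differed by -0.41 in 2B1 and 0.62 in 5C5, a gap of 1.03, and its other probe sets gave -0.50 and -0.53 in 2B1 and 0.65 and 0.75 in 5C5. S100a4 differed by -0.06 and 0.18 (gap 0.245), and Ankrd1 by -0.17 and 0.07 (gap 0.246). Each clone has 1 array per condition, so the difference between clones was not tested, and 26.2% of all tested genes had opposite signs in the clones.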

How the results depend on the processing

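The count of 0 of the 10 genes called between 2i and partial iPSCs held under the alternatives that left out no array and with only the 4 compared arrays. By the brightest probe sets, the lowest limma adjusted p among these was 0.0711 (Ereg, only the 4 compared arrays). Another probe set of Cd44 gave 0.0631 when every probe set was tested. A count of 0 does not show that the genes kept their level, since intervals were wide (0.09 to 2.32 for Efemp1). By the brightest probe set, 7 of the 10 genes kept their sign in all 13 alternatives. The differences of S100a4, Cavin2 and Ankrd1 did not. S100a4 was -0.015 with arrays centred on the median and ran from -0.22 to 0.34 with 1 array left out, Cavin2 from -0.34 to 0.55 and Ankrd1 from -0.165 to 0.064. The count of all genes called (760) was 1396 with only the 4 compared arrays, 297 with the clone as a replicate block, and 43 to 1396 with 1 array left out: 424 and 370 without untreated 2B1 or 5C5, 50 and 43 without 2i 2B1 or 5C5. When every probe set was tested, 480 of 22693 probe sets were called lower, in place of 311 of 12663 genes. Calls among listed genes (26) were 16 with the replicate block and 7 to 38 with 1 array left out, 13 of them without untreated 5C5. Where 1 array is left out, the lone array of its group is assumed to vary like the others. Vcam1 was no longer at least 1 above MEFs on both 2i arrays when arrays were centred on the median (0 genes). Genes at least 1 higher on the Cnot2 array were 2 after quantile normalization and 3 after centring on the median. Under the 2 other normalizations, and with 1 array of either group left out, all 10 genes kept means at least 1 log2 unit above ESCs. This held in 2i iPSCs and in partial iPSCs, as values with no test. The choice of the genes largely fixed this outcome in advance, so it is no check. The deposited differences nearest to 0 were already 4.32 (2i iPSCs minus ESCs) and -3.24 (ESCs minus partial iPSCs), both for Thy1. The counts of genes below MEFs and on the other transduced arrays stayed within 1.5 times. Except where an alternative leaves out arrays or tests more probe sets, the cause was not tested. ESC readings near background limit the size of differences from ESCs.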
